A study of Mus musculus with 19 samples.

Results

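Genes known for their expression in the olfactory bulb were followed through RNA sequencing libraries of the mouse brain. They were *Th*, *Eomes*, *Doc2g*, *Frmd7*, *Cdhr1*, *Trh*, *Shisa3*, *Scgn*, *Omp* and *Sp8*, which are 10 of the 41128 genes in the count table. All 10 passed a low-count filter over all libraries of the series. They were chosen by their counts in the prefrontal cortex (PFC), which stood high in 13_P3_WT, the library of WT replicate 3. Their prefrontal values are therefore a description, and nothing is read from calls made there. The low-count filter also used 13_P3_WT. *Scgn* had 360 counts in it, 11 in 12_P2_WT, 22 in 14_S1_KI and at most 8 in any other library. Tests that bear on the genes come from the striatum (STR) and the cerebellum (CB). Those tests share an estimate of spread for each gene with the prefrontal libraries. The library 13_P3_WT therefore enters their standard errors and adjusted p-values. The series holds 19 libraries from 3-month-old C57BL/6 mice, with 3 WT and 3 SCA17 knock-in (KI) libraries from PFC, the same numbers from STR, and 3 WT and 4 KI libraries from CB. The KI mice carry a TBP allele with an expanded glutamine tract in the germline, made by crossing floxed TBP mice with EIIa-Cre mice and then crossing the progeny with WT mice. The allele is therefore present in all tissues and not only in neurons. The study asked which genes mutant TBP, the TATA box-binding protein, changes in each region.

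The olfactory bulb lies in front of the frontal cortex and is the first relay for odour signals. Axons of olfactory sensory neurons end in its glomeruli on mitral and tufted cells, the glutamatergic projection neurons, and local interneurons, some of which make dopamine, shape that signal. Most of these interneurons are renewed throughout life by neuroblasts that migrate from the subventricular zone through the rostral migratory stream. *Th* encodes tyrosine hydroxylase, the rate-limiting enzyme of dopamine synthesis, *Scgn* the calcium-binding protein secretagogin, and *Sp8* a zinc finger transcription factor of bulb interneurons. *Eomes* encodes a T-box transcription factor of mitral and tufted cells, and *Cdhr1* a cadherin-related protein found in the same cells and in photoreceptors. *Doc2g* encodes a protein with C2 domains, *Shisa3* a membrane protein of the Shisa family, *Frmd7* a FERM domain protein whose human counterpart is mutated in inherited nystagmus, and *Trh* the precursor of thyrotropin-releasing hormone. *Omp* encodes the olfactory marker protein of mature olfactory sensory neurons.

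All 10 genes are protein-coding. In GENCODE M21 on GRCm38, *Th* spans bases 142892752 to 142931128 and *Omp* bases 98143359 to 98145502 of chromosome 7, both on the minus strand. *Eomes* spans 118478212 to 118486132 of chromosome 9 (plus), *Cdhr1* 37077857 to 37098347 of chromosome 14 (minus), *Trh* 92242061 to 92244650 of chromosome 6 (minus) and *Sp8* 118846329 to 118852576 of chromosome 12 (plus). *Doc2g*, *Frmd7*, *Shisa3* and *Scgn* lie on chromosomes 19, X, 5 and 13. Promoters are shown because the genes stood high in the same library. RefSeq promoters of GRCm38.p6 held 9 of the 10 genes, and each was searched over the 250 bases before the start, on both strands, for the TATA box (TATAAA), the cAMP response element (TGACGTCA) and the GC box (GGGCGG), none of which contains another. The 3 sequences below are those of *Th*, *Sp8* and *Trh*. Among the 9 genes, *Th* alone held the cAMP response element and *Sp8* alone the exact letters TATAAA. *Trh* was among the genes with a GC box only. Capitals mark the matches.
Th, chr7:142899996-142900245, minus strand: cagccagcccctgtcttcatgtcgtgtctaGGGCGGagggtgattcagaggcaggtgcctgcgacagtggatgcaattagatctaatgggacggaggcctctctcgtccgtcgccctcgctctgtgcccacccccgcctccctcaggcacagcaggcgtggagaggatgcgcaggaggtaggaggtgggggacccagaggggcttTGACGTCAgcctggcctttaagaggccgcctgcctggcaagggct
Sp8, chr12:118846079-118846328, plus strand: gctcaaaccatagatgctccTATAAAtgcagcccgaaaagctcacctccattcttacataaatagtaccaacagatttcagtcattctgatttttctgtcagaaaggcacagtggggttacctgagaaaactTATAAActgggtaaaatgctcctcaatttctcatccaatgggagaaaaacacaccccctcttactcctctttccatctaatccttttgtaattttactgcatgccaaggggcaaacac
Trh, chr6:92244651-92244900, minus strand: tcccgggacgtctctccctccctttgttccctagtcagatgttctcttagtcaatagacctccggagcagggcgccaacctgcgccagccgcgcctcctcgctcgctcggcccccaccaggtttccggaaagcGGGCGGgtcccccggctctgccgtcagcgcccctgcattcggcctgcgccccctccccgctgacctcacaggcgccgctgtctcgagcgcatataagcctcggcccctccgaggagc
The cAMP response element of *Th* lay 45 to 38 bases before the start, and 1.55% of the 32851 promoters in the table held these letters. The 9 genes had 11 promoter entries, 3 of them of *Sp8*, whose first is shown. The letters TATAAA occurred in 1 of these 11 entries and in 12.4% of all promoters, and variants of them were not searched. In *Sp8* they lay 230 to 225 and 118 to 113 bases before the start. The GC box occurred in 5 of the 11 and in 32.7% of all promoters. The GC box of *Sp8* lay in its second entry. The promoter entry of *Th* belongs to a start inside the span that GENCODE M21 gives for the gene.

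In PFC, all 10 genes had their highest level in 13_P3_WT. Levels are CPM, counts scaled to a common library size by TMM, which also corrects for composition. A single-library CPM has a 95% Poisson interval that covers counting error alone. For *Th* in 13_P3_WT it ran from 164.6 to 178.0 around 171 CPM. Of the 10 genes, 9 were at least 2 times higher in 13_P3_WT than in the highest of the other 5 prefrontal libraries, as were 213 of the 16841 tested genes (1.26%). These values chose the genes, so nothing is read from the difference between the 2 shares. *Cdhr1*, at 4.83 times, was the gene nearest to the 2-fold limit from above, and *Omp*, at 1.12 times, was the gene below it.

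Genes of bulb interneurons were high in 13_P3_WT and low in all other prefrontal libraries. *Th* was at 3.56, 5.50 and 171 CPM in WT replicates 1, 2 and 3, and at 2.18, 1.42 and 1.36 CPM in KI replicates 1, 2 and 3. The other WT libraries lay above the KI libraries, and 13_P3_WT was 31.2 times the highest of the other 5. *Scgn* was at 0.274, 0.746 and 24.3 CPM in WT and at 0.485, 0.225 and 0.387 CPM in KI, a ratio of 32.5. *Sp8* was at 0.822, 1.15 and 14.8 CPM in WT and at 0.727, 0.899 and 0.968 CPM in KI, a ratio of 12.8. For both, the 5 other libraries of the 2 genotypes overlapped.

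*Eomes* and *Cdhr1*, genes of the projection neurons, were also highest in 13_P3_WT among the prefrontal libraries. *Eomes* was at 0, 0.407 and 30.0 CPM in WT and at 0.121, 0.150 and 0 CPM in KI. The other 5 libraries held at most 6 counts of it, against 445 in 13_P3_WT, and the ratio of 73.7 was the highest of all tested genes. *Cdhr1* was at 9.38, 13.8 and 158 CPM in WT and at 32.7, 14.8 and 4.26 CPM in KI. It was thus detected in all 6 libraries, and KI replicate 1 stood between 13_P3_WT and the rest.

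*Doc2g* was at 1.58, 2.78 and 65.3 CPM in WT and at 1.51, 1.27 and 1.16 CPM in KI, a ratio of 23.5. *Frmd7* was at 0.411, 1.15 and 34.0 CPM in WT and at 0.485, 0.824 and 0.484 CPM in KI, a ratio of 29.5. *Shisa3* was at 0.753, 2.10 and 24.7 CPM in WT and at 1.58, 0.824 and 1.36 CPM in KI, a ratio of 11.8. All 3 genes were detected in every prefrontal library, at 0.411 to 2.78 CPM outside 13_P3_WT, with WT replicate 2 as the next highest. *Trh* was at 1.16, 0.814 and 48.3 CPM in WT and at 7.64, 0.674 and 0.194 CPM in KI, and its ratio of 6.32 was set by KI replicate 1, which held 126 counts against 2 to 17 in the other 4 libraries.

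**Figure D1:**
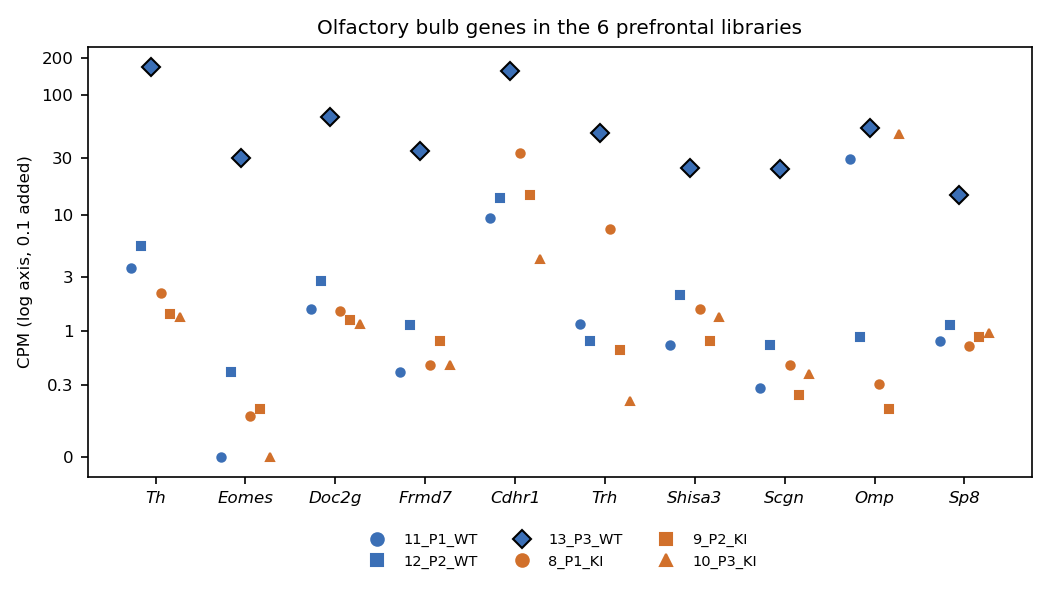
CPM of the 10 bulb genes in each of the 6 prefrontal libraries, on a log axis with 0.1 CPM added, with WT in blue, KI in orange and 13_P3_WT as an outlined diamond. The diamond is the highest point for every gene, from 14.8 CPM for *Sp8* to 171 CPM for *Th*, and only for *Omp* does another library reach a similar level.

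The summed level of the 10 genes was 623.5 CPM in 13_P3_WT and 21.2 to 57.7 CPM in the other 5 libraries. Per kilobase of exon, which allows levels of different genes to be compared, *Th* was the most abundant in 13_P3_WT at 72.4 CPM, followed by *Cdhr1* at 36.4, *Trh* at 34.9, *Omp* at 24.8 and *Doc2g* at 21.5 CPM. The lowest were *Eomes* at 7.22, *Shisa3* at 5.20 and *Sp8* at 3.24 CPM per kilobase. WT replicate 2 was the next highest library for 7 genes, KI replicate 1 for *Cdhr1* and *Trh*, and KI replicate 3 for *Omp*. Across all 19 libraries 13_P3_WT was the highest for 9 genes, the exception being *Eomes*, which reached 39.6 CPM in CB of WT replicate 1. Ranked by the ratio to the highest other prefrontal library over 16841 genes, *Eomes*, *Scgn*, *Th*, *Frmd7* and *Doc2g* took ranks 1 to 5, *Sp8* rank 12, *Shisa3* rank 14, *Trh* rank 28 and *Cdhr1* rank 40, whereas *Omp* had rank 1860. In bulk tissue, more cells of a type and more RNA per cell cannot be told apart.

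*Omp* was above 25 CPM in 3 of the 6 prefrontal libraries and below 1 CPM in the other 3. It was at 29.0, 0.882 and 53.1 CPM in WT replicates 1, 2 and 3, and at 0.303, 0.150 and 47.5 CPM in KI replicates 1, 2 and 3. High and low libraries were found in both genotypes, and the level of 13_P3_WT was close to that of KI replicate 3. Among 12 other genes of olfactory sensory neurons, 11 were tested and 1 was past the 2-fold limit in 13_P3_WT. This was *S100a5*, a calcium-binding protein gene, at 33.4 CPM against 12.1 CPM in KI replicate 3 and 8.22 CPM in WT replicate 1. *Stoml3*, a stomatin-like protein of sensory cilia, was at 13.5 CPM in 13_P3_WT, 37.6 CPM in KI replicate 3 and 24.9 CPM in WT replicate 1. Both genes were below 1.1 CPM in the remaining 3 prefrontal libraries.

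The odour transduction channel gene *Cnga2* was at 1.96 CPM in 13_P3_WT, and at 9.39 and 8.15 CPM in KI replicate 3 and WT replicate 1. *Umodl1* was at 0.472 CPM in 13_P3_WT, and at 13.6 and 9.52 CPM in those libraries. *Rtp2*, which encodes a receptor transport protein, was at 0.472, 3.48 and 2.60 CPM in the same order. These 3 genes were thus higher in those 2 libraries than in 13_P3_WT, while the bulb genes were lower in those 2 libraries, *Omp* by the least. *Cnga2*, *Umodl1* and *Rtp2* were chosen for display after their values were seen. The more abundant genes of the list, *Adcy3*, *Ncam2* and *Gng13*, were at 39.6, 43.1 and 17.0 CPM in 13_P3_WT, against 48.4 to 67.0, 40.9 to 51.3 and 12.2 to 14.8 CPM elsewhere. In STR, *Omp* was at 14.1 CPM in KI replicate 3 and at 0.293 to 0.868 CPM in the other 5 libraries, and *Stoml3*, *Cnga2*, *S100a5* and *Umodl1* were also highest in that library, at 11.1, 5.49, 3.44 and 3.17 CPM.

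**Figure D2:**
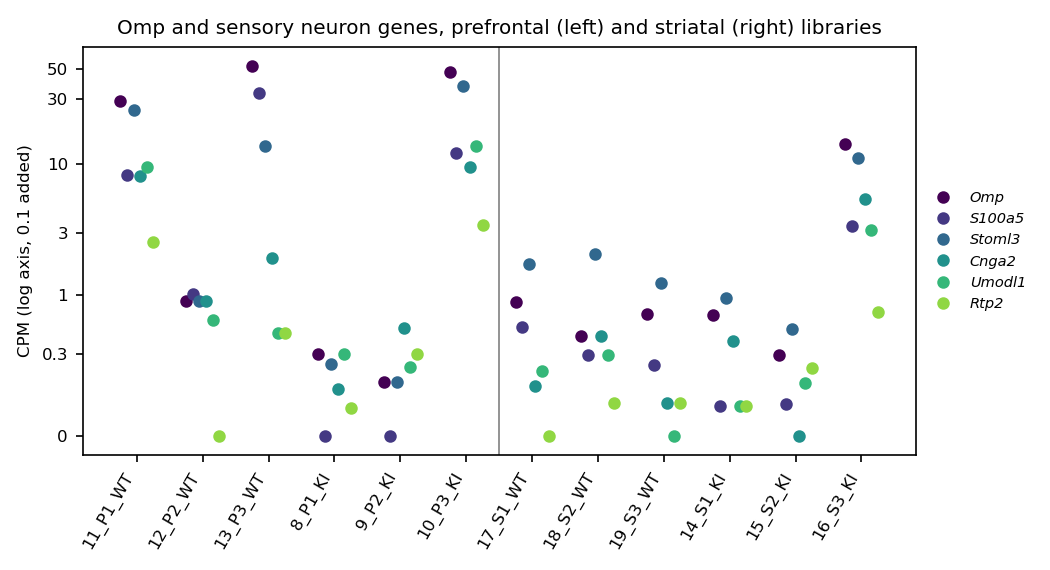
CPM of *Omp* and 5 other genes of olfactory sensory neurons in the 6 prefrontal libraries (left of the line) and the 6 striatal libraries (right), on a log axis with 0.1 CPM added. Points are high in 11_P1_WT, 13_P3_WT, 10_P3_KI and 16_S3_KI, and in 13_P3_WT *Cnga2*, *Umodl1* and *Rtp2* stay below 2 CPM.

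Other genes of the olfactory bulb and of other cell types were compared over the same libraries in 15 lists, as counts beside a median ratio of 0.846 to the highest other prefrontal library over all tested genes. Of 10 transcription factors of bulb interneurons, 7 were past the 2-fold limit in 13_P3_WT, and the median ratio was 2.55. They were *Dlx1*, *Dlx2* and *Dlx6*, homeobox genes of GABA neurons, with ratios of 3.28, 3.61 and 2.50, *Sp9* with 2.86, *Pax6* with 2.83, *Tshz1* with 2.60 and *Meis2* with 2.12. *Meis2* was the most abundant, at 269 CPM in 13_P3_WT and 87.7 to 127 CPM in the other 5. *Etv1* was at 82.6 CPM in 13_P3_WT, with a ratio of 0.936. Cortex and striatum hold GABA neurons too, and these genes were above 1 CPM in all 6 libraries, unlike *Eomes*. The 10 factors summed to 690 CPM in 13_P3_WT and 262.9 to 303.3 CPM in the other prefrontal libraries. Their sum was 477.6 to 780 CPM in STR and 479.1 to 530.2 CPM in CB.

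Of 7 interneuron effector genes, 3 were past the limit. *Calb2*, which encodes calretinin, was at 206 CPM against 11.5 to 26.5 CPM, and *Prokr2*, a prokineticin receptor, at 17.0 against 1.74 to 5.64 CPM. *Gad1*, one of the enzymes that make GABA, was at 1081 CPM against 386.5 to 511 CPM, while *Gad2* and *Synpr* were at 309 and 368 CPM with ratios of 1.51 and 1.44. Of 7 neuroblast genes, *Dcx* at 74.5 CPM and *Igfbpl1* at 4.04 CPM were past the limit, with ratios of 2.31 and 5.96. *Sox11* and *Cd24a* were at 37.9 and 17.9 CPM, with ratios of 1.35 and 1.60. Of 5 genes of ensheathing glia, *Fabp7* was past the limit at 212 CPM against 21.4 to 43.3 CPM, and *Npy* and *Frzb* were not, at 179 and 63.2 CPM.

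The projection neuron list was split. *Lbhd2* was at 10.9 CPM against 0.0749 to 1.09 CPM, and *Lhx5* at 0.809 CPM with a ratio of 2.79. *Tbx21*, a T-box factor of mitral and tufted cells, was at 12.3 CPM against at most 0.407 CPM, but it had too few counts for the tested set. *Tbr1*, *Reln* and *Slc17a6*, which cortical neurons also express, were at 93.6, 60.1 and 29.1 CPM, with ratios of 0.619, 1.12 and 0.639. The list thus had 2 of 6 tested genes past the limit and a median ratio of 0.881.

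*Th* was not accompanied by most other genes of dopamine synthesis. *Ddc*, which encodes the enzyme that follows tyrosine hydroxylase, was at 11.0 CPM in 13_P3_WT and 5.34 to 12.2 CPM in the other 5 libraries, and the vesicular transporter gene *Slc18a2* at 12.4 against 8.63 to 12.6 CPM. The dopamine transporter gene *Slc6a3*, which was not in the tested set, was at 6.88 CPM against 0 to 0.342 CPM. *Pnmt* was the 1 of 10 tested genes past the limit, at 0.944 CPM with a ratio of 3.15. *Qdpr*, *Maob* and *Maoa*, the most abundant genes of the list, had ratios between 0.656 and 0.875. Of the 3 tested genes of midbrain dopamine neurons none was past the limit. Their defining factors *En1* and *Foxa2* had 0 counts in all 6 prefrontal libraries, and *Pitx3* was at most 0.411 CPM.

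Of the other genes of the *Trh* pathway, 1 of 7 was above all other 5 libraries in 13_P3_WT, and that was *Trhr2*. None of the 7 genes for the processing and reception of thyrotropin-releasing hormone was past the limit, and their median ratio was 0.777. The hormone receptor genes *Trhr* and *Trhr2* were at 3.71 and 3.17 CPM, with ratios of 0.913 and 1.14. The processing enzyme genes *Cpe*, *Pcsk2* and *Pam* were at 3683, 304 and 155 CPM, with ratios of 0.937, 0.755 and 0.756.

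Markers of the cortex itself were at their lowest sum in 13_P3_WT. The summed level of 9 genes of cortical excitatory neurons was 1245 CPM in 13_P3_WT and 1634 to 1995 CPM in the other 5 libraries, and 6 of the 9 genes were below all other 5. *Slc17a7*, the main vesicular glutamate transporter gene of the cortex, was at 958 CPM against 1197 to 1551 CPM, and *Neurod6* at 83.4 against 95.4 to 148.5 CPM. None of the 9 was below the lowest other library by a factor of 2, a limit that 74 tested genes passed (0.439%). The 10 striatal markers summed to 906 CPM in 13_P3_WT, against 392.6 and 321.5 CPM in WT replicates 1 and 2. KI replicates 1, 2 and 3 were at 786, 1199 and 239.5 CPM. The striatal sum of 13_P3_WT was thus above the other WT libraries but was not the highest of all. Choroid plexus markers summed to 36.7 CPM against 16.6 to 53.7 CPM, where *Aqp1* was the 1 gene of 7 past the limit at 7.62 CPM. None of 5 meningeal genes, 5 red blood cell genes or 6 cerebellar genes passed it. The part of tissue composition in the values of the 10 genes was not tested.

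**Figure D3:**
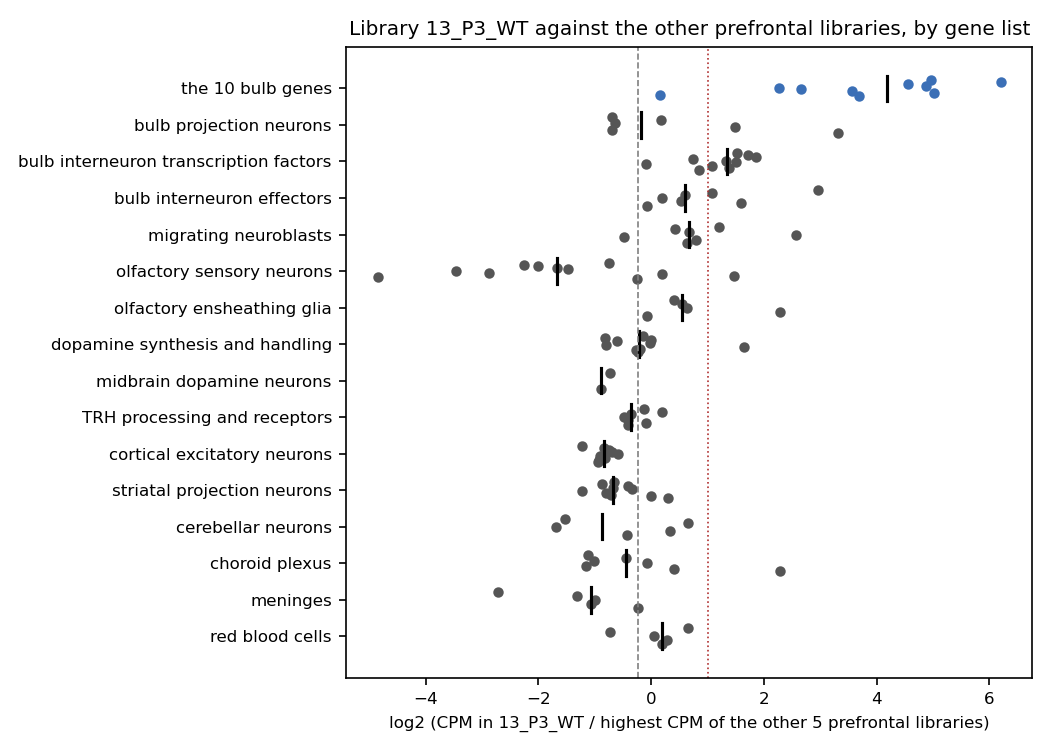
Ratio of the CPM in 13_P3_WT to the highest CPM of the other 5 prefrontal libraries, on a log2 axis, for each tested gene of the 10 bulb genes and of 15 lists, with black bars at list medians, a dashed line at the median of all tested genes and a dotted line at a ratio of 2. The bulb genes reach 73.7, interneuron transcription factors gather between 0.936 and 3.61, and cortical genes lie below 1. *En1* and *Barhl1*, at 0 in 13_P3_WT, have no point.

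Outside these lists, the genes with the highest ratios in 13_P3_WT were *Cpa6* at 18.7, *Chrna10* at 17.7, *Rec8* at 16.7, *Clca3a1* at 14.7, *Gpr179* at 13.7, *Ppm1j* at 13.6, *Klhl30* at 12.1 and *Ly6g6e* at 11.7. The likeness to the 10 genes is this ratio over 6 libraries, and it says nothing of shared function. *Cpa6*, which encodes a carboxypeptidase, was at 22.8 CPM in 13_P3_WT and 0.484 to 1.22 CPM in the other prefrontal libraries, and at most 0.397 CPM in STR and 0.121 CPM in CB. *Rec8*, a cohesin gene of meiosis, was in contrast at 2.66 to 15.9 CPM in CB, so this pattern over PFC was not tied to one pattern in the other regions.

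In the comparison of KI with WT in PFC, the log2 fold changes differed with and without 13_P3_WT. With all libraries the log2 fold changes ran from -0.82 for *Omp* to -6.57 for *Eomes*, all negative, and none of the 10 genes was called by the quasi-likelihood test of edgeR at an adjusted p under 0.05, where 18 of 16841 genes (0.107%) were. Without 13_P3_WT they ran from -1.43 for *Th* to 1.56 for *Trh*, again with none of the 10 called, where 16 of 17204 genes (0.0930%) were. Of those calls, 13 genes were common to both fits. DESeq2 called 4 of the 10 genes with all libraries, *Th*, *Eomes*, *Doc2g* and *Frmd7*, beside 52 of 16841 genes (0.309%), and none of the 10 without 13_P3_WT, beside 46 of 17204 genes (0.267%). It gave no adjusted p for *Trh* with all libraries or for *Omp* without 13_P3_WT. These contrasts chose the genes, so the calls and the shares beside them support nothing about the genes.

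*Th* had a log2 fold change of -5.15 (SE 1.16) with 13_P3_WT and -1.43 (SE 0.556) without it. *Doc2g* changed from -4.12 (SE 1.01) to -0.71 (SE 0.487), *Frmd7* from -4.29 (SE 1.17) to -0.38 (SE 0.758) and *Scgn* from -4.48 (SE 1.32) to -0.46 (SE 0.937). For *Eomes* the values were -6.57 (SE 1.71) and -0.99 (SE 1.37), for *Shisa3* -2.87 (SE 0.867) and -0.19 (SE 0.555), and for *Sp8* -2.69 (SE 0.844) and -0.20 (SE 0.491). *Trh*, *Cdhr1* and *Omp* changed direction, from -2.50 to 1.56, from -1.79 to 0.59 and from -0.82 to 0.08. KI libraries also moved these 3 genes, since leaving out KI replicate 3 gave -6.84 for *Omp*, and leaving out KI replicate 1 gave -5.18 for *Trh* and -2.64 for *Cdhr1*. All KI libraries lay below all WT libraries for *Th* and *Doc2g*, and 8.69% of all tested genes had prefrontal groups that did not overlap in either direction.

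**Figure D4:**
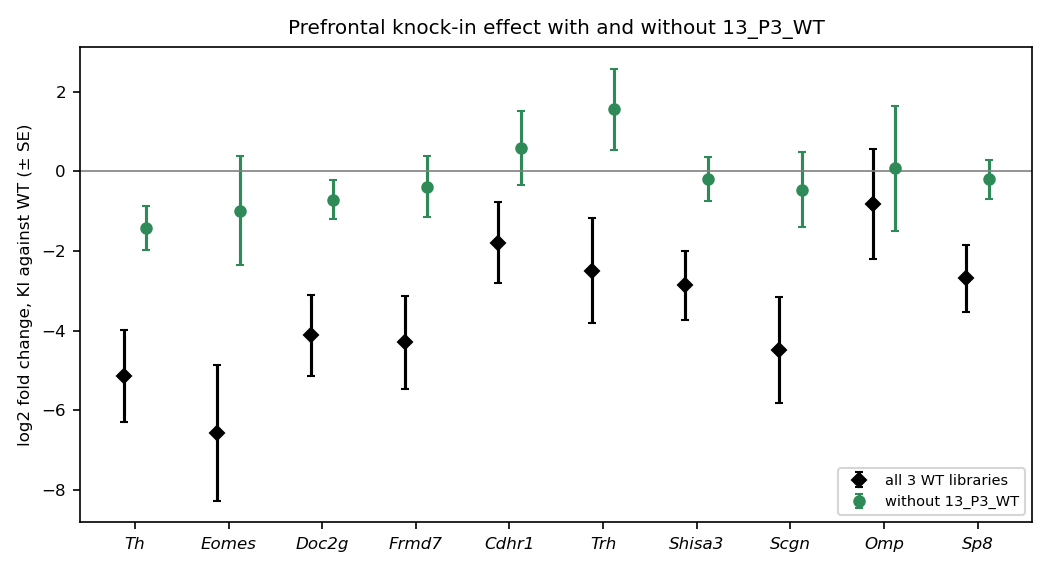
Log2 fold change of KI against WT in PFC, with SE from edgeR, for each bulb gene with all 3 WT libraries (black diamonds) and without 13_P3_WT (green circles). Diamonds lie between -0.82 and -6.57 and circles between -1.43 and 1.56, nearer to 0 for all 10 genes.

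In STR, whose counts the choice of the genes did not use, none of the 10 genes was called between KI and WT. Of 16841 tested genes, 98 (0.582%) were called, and 1368 had an unadjusted p under 0.05. The spread in this fit included 13_P3_WT. Leaving it out also gave no call among the 10, beside 116 of 17204 genes. DESeq2 called none of the 10 either, beside 214 of 16841 genes (1.27%), and gave no adjusted p for *Trh*. *Th* was at 14.0, 12.5 and 20.3 CPM in WT and at 9.67, 12.8 and 9.32 CPM in KI. The groups overlapped, with a log2 fold change of -0.56 (SE 0.947, adjusted p = 0.950 by edgeR, Benjamini-Hochberg method). *Trh* was even, at 4.47, 5.05 and 5.64 CPM in WT and at 5.88, 4.98 and 5.02 CPM in KI, with a log2 fold change of 0.07 (SE 1.27). *Cdhr1* was uneven within both genotypes, at 7.48, 72.4 and 13.1 CPM in WT and at 22.9, 28.9 and 6.21 CPM in KI, with a log2 fold change of -0.68 (SE 0.992). WT replicate 2 held most of it, and without that library the log2 fold change was 0.91.

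*Omp* in STR had a log2 fold change of 2.89 (SE 1.78, adjusted p = 0.739 by edgeR), which rested on KI replicate 3, and it was -0.45 without that library. No gene of the 10 had STR groups that did not overlap, beside 14.1% of all tested genes. *Doc2g*, *Sp8* and *Frmd7* stayed between 0.200 and 1.85 CPM in the 6 striatal libraries, and *Scgn*, *Eomes* and *Shisa3* between 0 and 1.49 CPM. The counts of *Scgn*, *Eomes* and *Shisa3* in STR ran from 0 to 22, so nothing is read from their lack of a call. Choroid plexus markers summed to 1571 to 9052 CPM in STR, and the ranges of the 2 genotypes overlapped.

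In CB, none of the 10 genes was called between KI and WT by edgeR or by DESeq2. *Trh*, *Scgn* and *Sp8* had 3 counts or fewer in every CB library, and *Omp* at most 4. These counts were too few for a change to be called, so nothing is read from them. Over the table, edgeR called 140 of 16841 tested genes (0.831%), and 1705 had an unadjusted p under 0.05. DESeq2 called 336 of 16841 genes (2.00%). *Th* and *Eomes* were nevertheless lower in all 4 KI libraries than in all 3 WT libraries, beside 12.3% of all tested genes whose cerebellar groups did not overlap in either direction. *Th* is known from some Purkinje cells, and *Eomes* from unipolar brush cells. *Th* was at 26.8, 8.32 and 4.61 CPM in WT and at 2.87, 2.49, 2.52 and 1.63 CPM in KI. WT replicate 1 stood well above the rest, and the KI libraries lay close together. The log2 fold change was -2.48 (SE 0.948, adjusted p = 0.353 by edgeR). The test of *Th* depended on a prefrontal library through the shared estimate of spread. Without 13_P3_WT the log2 fold change was -2.47 (SE 0.435, adjusted p = 0.00834 by edgeR), the only call among the 10 genes between KI and WT of CB in that fit, which called 150 of 17204 genes (0.872%). Without WT replicate 1 of CB alone it was -1.44 (SE 1.03, adjusted p = 0.685 by edgeR). With 13_P3_WT and WT replicate 1 of CB both left out it was -1.44 (SE 0.299, adjusted p = 0.0348 by edgeR, 158 of 17157 genes or 0.921% called), a setting added after the data were seen. With the CB libraries alone it was -2.48 (SE 0.523, adjusted p = 0.0680 by edgeR, 172 of 15398 genes or 1.12% called).

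*Eomes* in CB was at 39.6, 10.5 and 16.4 CPM in WT and at 8.56, 5.10, 5.77 and 6.71 CPM in KI, again highest in WT replicate 1. The log2 fold change was -1.76 (SE 0.958, adjusted p = 0.577 by edgeR) and -1.76 (SE 0.465, adjusted p = 0.108 by edgeR) without 13_P3_WT. It was -1.04 (SE 1.08, adjusted p = 0.813 by edgeR) without WT replicate 1 of CB, and -1.04 (SE 0.480, adjusted p = 0.457 by edgeR) with both left out. With the CB libraries alone it was -1.76 (SE 0.400, adjusted p = 0.0865 by edgeR). *Doc2g* was at 6.94, 2.10 and 2.91 CPM in WT and at 1.52, 2.66, 1.74 and 2.36 CPM in KI, with overlapping groups and a log2 fold change of -0.95 (SE 0.858), which was -0.27 (SE 0.998) without WT replicate 1. WT replicate 1 of CB also stood apart in choroid plexus markers, at 1991 CPM summed against 28.7 and 45.0 CPM in the other WT libraries, while KI replicate 3 had 4990 CPM without high *Th* or *Eomes*. *Slc6a3* had at most 2 counts and *Pitx3* at most 1 count in each CB library. *En1* had 94, 7 and 0 counts in WT and 47, 58, 7 and 2 counts in KI. The part of dissection in the level of WT replicate 1 was not tested.

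Of the other genes of the sensory neuron list, *Gng13*, a G protein gamma subunit gene also active in Purkinje cells, was called in CB with a log2 fold change of -1.10 (SE 0.143, adjusted p = 0.000418 by edgeR). None of the 10 tested genes of dopamine synthesis and handling and none of the 7 of the thyrotropin-releasing hormone list was called between KI and WT in PFC, STR or CB. The KI effect in STR differed from that in CB for none of the 10 bulb genes, and for 2 of all tested genes (0.0119%).

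The levels of the 10 genes in WT mice differed between STR and CB for 4 genes, beside 9512 of 16841 tested genes (56.5%), so the share was not above that of the table with all libraries. *Eomes* was at 0, 0.0743 and 0.155 CPM in STR, below all CB libraries, with a log2 difference of -8.09 (SE 1.75, adjusted p = 0.000837 by edgeR). *Cdhr1* was at 0.578, 0.393 and 0.243 CPM in WT CB, below all STR libraries, with a log2 difference of 6.19 (SE 1.47, adjusted p = 0.00177 by edgeR). *Trh* and *Sp8* had 0 counts in all 3 WT CB libraries, so that their striatal levels were at least 24.0-fold and at least 5.96-fold higher than a floor of 3 counts per library. The KI libraries of CB held no count of *Trh* and 1 count of *Sp8*. Without 13_P3_WT, *Doc2g*, *Shisa3* and *Scgn* were called as well, which made 7 of the 10 genes beside 9674 of 17204 (56.2%). With only 10 genes, nothing is read from the difference between these shares. *Scgn* had 3, 2 and 7 counts in WT STR and 0 in WT CB, so its striatal mean was only at least 1.41-fold above the floor of 3 counts. The mean level of *Th* was 15.6 ± 4.16 CPM (SD, n = 3) in WT STR and 13.2 ± 11.9 CPM (SD, n = 3) in WT CB, which overlapped. It was 10.6 ± 1.93 CPM (SD, n = 3) in KI STR, 2.80 ± 1.75 CPM (SD, n = 5) in the other 5 prefrontal libraries and 2.38 ± 0.527 CPM (SD, n = 4) in KI CB, of which the last 2 overlapped.

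**Figure D5:**
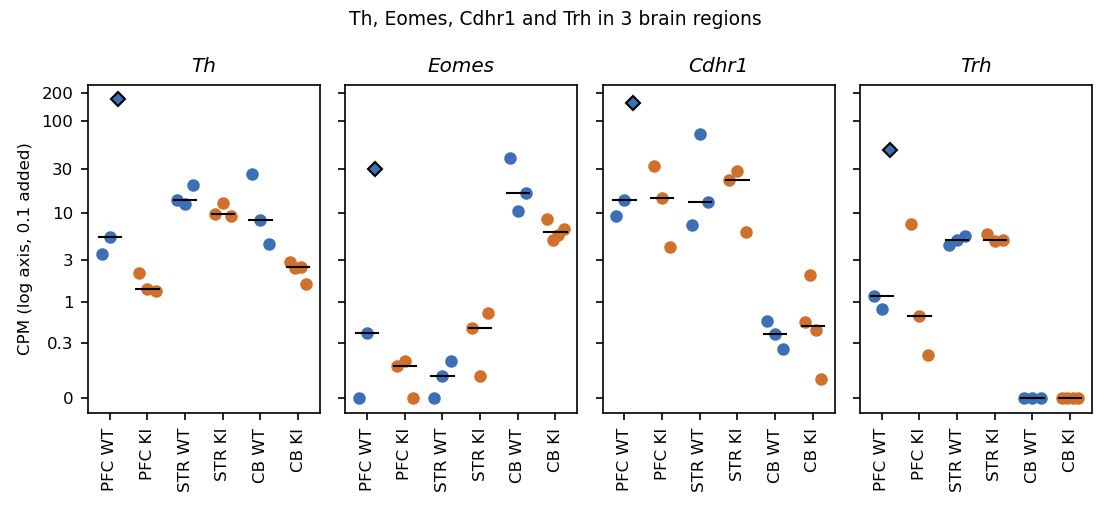
CPM of *Th*, *Eomes*, *Cdhr1* and *Trh* in every library of PFC, STR and CB, on a log axis with 0.1 CPM added, with WT in blue, KI in orange, group medians as bars and 13_P3_WT as an outlined diamond. *Trh* is at 0 in all CB libraries, *Eomes* is at 5.10 CPM or more in every CB library and, outside CB, only in the diamond, and *Th* in CB separates WT (4.61 to 26.8 CPM) from KI (1.63 to 2.87 CPM).

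Library totals ranged from 10639110 to 17431284 counts, and 13_P3_WT held 14719467. The share of mitochondrial counts was 1.69% in 13_P3_WT and 1.53% to 1.83% in the other prefrontal libraries. Regional markers followed the labels, since the cortical list summed to 1245 to 1995 CPM in PFC, 597 to 747 CPM in CB and 47.3 to 250 CPM in STR, the striatal list to 5689 CPM or more in STR only, and the cerebellar list to 3925 to 5873 CPM in CB and at most 40.7 CPM elsewhere. *Omp* lies within *Capn5* on the same strand, and *Eomes*, *Doc2g*, *Shisa3* and *Scgn* overlap another gene in part, so that their counts may share reads with it.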

How the data were processed

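Total RNA was extracted with Trizol from PFC, STR and CB, and libraries were prepared with the SMART-Seq v4 and Nextera XT kits, which do not mark strand, and sequenced on a HiSeq1000 (3 to 4 mice per genotype, per the labels). Nothing states which libraries share an animal, and p-values measure the spread between these libraries. The authors deposited raw counts per Ensembl gene, and a signal table of counts divided by DESeq2 size factors. The submitters' processing notes name bcl2fastq 2.17.1.14, STAR 2.5.2b, HTSeq, DESeq2 1.10.1 and GRCm38.p3, with no roles, and the paper names Cufflinks and Cuffdiff. Names came from GENCODE M21, which held 40254 of 41128 identifiers.

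Counts were fitted in R 4.3.3 with edgeR 4.0.16 (TMM, filterByExpr with 6 groups, 16841 genes, quasi-likelihood test, 13 residual degrees of freedom, common biological coefficient of variation 0.191), all 19 libraries together. P values were adjusted by Benjamini-Hochberg over all tested genes, with a threshold of 0.05. DESeq2 1.42.0 was an alternative. Scripts were tested on simulated data. Pairs of replicates differed by 5.14 to 31.3 chi-square units per degree of freedom, more than sampling noise. The 10 genes, the lists and the tests were chosen with earlier results of these data known. Named genes were the 10, up to 4 of each list with the highest prefrontal CPM plus any past the 2-fold limit, and the 8 other tested genes with the highest ratio and at least 1 CPM in 13_P3_WT. Alternatives were other size factors, other filters, robust fitting, each region alone, replicate blocks, each library left out, the deposited signal table, a limit of 4 times and the median of the other 5 libraries. The floor was 3 counts. Results for 2 genes of the lists are not reported here, though the list counts, medians and sums include them.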

Additional observations from a re-analysis of the deposited data

How the results depend on the processing

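The count of bulb genes past the fold in 13_P3_WT was 9 with library totals, with the deposited signal table, with a limit of 4 times and with no filter, and 10 against the median of the other 5 libraries. In PFC, DESeq2 called 4 bulb genes where edgeR called 0, and the cause was not tested. In CB, 1 was called with 13_P3_WT and 5_C1_WT left out, and leaving out 1 library at a time gave 0 to 1, the 1 without 13_P3_WT. In WT STR against WT CB, leaving out 1 library gave 4 to 7 calls, the 7 without 13_P3_WT, and a filter of at least 10 counts in every library gave 0, since it left 1 of the 10 genes. Without single libraries, PFC and STR and the difference between STR and CB gave 0 calls each.

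Directions turned in PFC without 13_P3_WT for *Cdhr1*, *Trh* and *Omp*, to log2 fold changes of 0.59, 1.56 and 0.077, with the prefrontal libraries alone and without it to 0.59, 1.56 and 0.067, and in DESeq2 without it to 0.56, 1.52 and 0.083. With single libraries left out, *Cdhr1* in PFC ran from -2.64 to 0.59, *Trh* from -5.18 to 1.56 and *Omp* from -6.84 to 0.077, *Cdhr1* in STR from -1.14 to 0.91, *Trh* in STR from -0.014 to 0.16 and *Omp* in STR from -0.45 to 3.44. In CB, *Th* ran from -2.88 to -1.44, *Eomes* from -2.10 to -1.04 and *Doc2g* from -1.26 to -0.27. Over all genes, DESeq2 called 52 in PFC, 214 in STR and 336 in CB, against 18, 98 and 140 by edgeR. With the region alone, edgeR called 0 in PFC, 46 in STR and 172 in CB.

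Replicate numbers are shared between genotypes, and nothing states that they pair the libraries. The correlation of deviations of same-numbered libraries within a region was -0.25 to 0.17. Libraries of unlike number were not compared in this way, so these values cannot decide whether the numbers pair the libraries. A replicate block within region called 0 of the 10 genes in PFC, STR and CB, and 9 of all genes in PFC. A replicate block across regions called 5 of the 10 between WT STR and WT CB. Depth limits *Eomes*, *Scgn*, *Sp8*, *Trh*, *Omp*, *Frmd7*, *Cdhr1* and *Shisa3* in libraries at or below 3 counts.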

Other observations

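Counts of odorant receptor genes were summed after the values of *Omp* had been seen. The 1160 *Olfr* genes together had 47.1 CPM in PFC of KI replicate 3 and 31.6 CPM in PFC of WT replicate 1, against 24.5 CPM in 13_P3_WT and 14.3 to 24.4 CPM in the other 3 prefrontal libraries. More than 3 counts were found for 36 of these genes in WT replicate 1, 26 in KI replicate 3 and 19 in 13_P3_WT, and for 7 to 10 in the rest of PFC. In STR, KI replicate 3, the library with the highest *Omp* of that region, had 29.2 CPM and 22 such genes, and the other 5 had 15.4 to 27.2 CPM and 8 to 12 such genes.

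The deviations of PFC and STR libraries with the same genotype and replicate number from their group means correlated at 0.23 to 0.37 across genes in all 6 pairs. Such pairs of PFC and CB libraries correlated at -0.060 to 0.077, and those of STR and CB libraries at -0.10 to 0.16. Genes are not independent replicates, the labels do not say that such libraries share a mouse, and no p is given.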
